A study of Mus musculus with 48 samples.

Results

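The genes described here are 41 genes of DNA double-strand break repair and its signalling, named from a fixed list of symbols and found among the 36854 genes of the count table through their Ensembl identifiers. They comprised 11 genes of damage signalling, 14 of homologous recombination, 7 of the Fanconi pathway and 9 of end joining. All 41 were found, and all 41 passed the filter on low counts in each fit, the smallest count of any of them in any tumour being 35. They were measured by bulk RNA sequencing in 48 mouse soft-tissue sarcomas on the 129/SvJae background, which were treated at a volume of about 150 mm3 and taken on day 3 after treatment. Every mouse received 200 µg of antibody, either muDX400, which is murine and blocks the T cell receptor PD-1, or an isotype control, and the hind limb then received 0 or 20 Gy of X-rays.

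In p53FL/FL mice aged 6 to 10 weeks, 32 primary tumours were induced in the gastrocnemius, a muscle of the calf, by an adenovirus carrying Cre recombinase and 300 µg of the carcinogen MCA. The 16 allografts grew in the same muscle of syngeneic mice from 50000 cells of 1 line, so that they represent 1 tumour of origin. The allele and the carcinogen were shared by all groups of primary tumours, irradiated or not, and the adenovirus delivered Cre to whichever cells it entered at the injected site. Each kind was split into 0 Gy with isotype, 0 Gy with anti-PD-1, 20 Gy with isotype and 20 Gy with anti-PD-1, each of 4 tumours for the allografts and of 8 for the primary tumours. The labels describe separate tumours but give no litter, cage or day, so p-values measure the spread between these tumours.

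A double-strand break is sensed by the MRN complex (Mre11a, Rad50, Nbn), which activates the kinase Atm, while single-stranded DNA activates the kinase Atr, and both signal to the checkpoint kinases Chek1 and Chek2. In S and G2 phase the break can be resected and copied from the sister chromatid, with Brca1, Bard1, Palb2 and Brca2 loading the recombinase and the paralogues Rad51b, Rad51c, Rad51d, Xrcc2 and Xrcc3 assisting it. In any phase it can be joined directly by Ku (Xrcc5 and Xrcc6), the kinase Prkdc, the nuclease Artemis (Dclre1c) and ligase IV with its partner Xrcc4 (Lig4, Xrcc4). Polq and Parp1 act in an alternative end joining route, and the Fanconi genes act on interstrand crosslinks. Many genes of recombination are known to be transcribed mainly in cycling cells, and much of the response to radiation is known to act on existing proteins, which RNA levels do not show.

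Promoter sequences are shown for 4 genes: Dclre1c, the one member that rose after 20 Gy; Xrcc5, the member with the lowest fold change in primary tumours given isotype; and Fancb and Rnf168, 2 of the 4 members that carry the letters GGCGGGAA. Fancb and Rnf168 were called lower with averaged arms in primary tumours, and the other 2 carriers, Fancm and Mdc1, were not (log2 fold changes of -0.36 and -0.19). Each is the 250 bases before the annotated start, from RefSeq on GRCm38.p6, 5′ to 3′ on the strand of the gene, and capitals mark every match to GGCGGGAA, TTTCGCGC, TTTGGCGC (letters bound by E2F factors, which act at entry into S phase) or CCAAT on either strand.
Dclre1c, chromosome 2, 3423881 to 3424130, plus strand: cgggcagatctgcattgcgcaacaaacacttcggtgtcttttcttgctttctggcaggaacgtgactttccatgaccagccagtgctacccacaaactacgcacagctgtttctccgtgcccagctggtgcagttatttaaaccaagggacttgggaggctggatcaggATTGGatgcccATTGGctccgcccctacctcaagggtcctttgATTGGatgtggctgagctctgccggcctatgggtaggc
Xrcc5, chromosome 1, 72307171 to 72307420, plus strand: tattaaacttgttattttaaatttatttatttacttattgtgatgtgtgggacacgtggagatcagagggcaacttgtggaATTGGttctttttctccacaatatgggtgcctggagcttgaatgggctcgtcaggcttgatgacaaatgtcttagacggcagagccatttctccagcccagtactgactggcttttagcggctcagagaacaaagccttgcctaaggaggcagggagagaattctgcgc
Fancb, chromosome X, 164980342 to 164980591, plus strand: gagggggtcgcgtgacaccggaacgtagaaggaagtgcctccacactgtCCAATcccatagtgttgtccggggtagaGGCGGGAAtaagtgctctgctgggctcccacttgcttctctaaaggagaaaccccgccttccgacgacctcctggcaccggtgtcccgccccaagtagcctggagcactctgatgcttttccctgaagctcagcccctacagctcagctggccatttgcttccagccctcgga
Rnf168, chromosome 16, 32277211 to 32277460, plus strand: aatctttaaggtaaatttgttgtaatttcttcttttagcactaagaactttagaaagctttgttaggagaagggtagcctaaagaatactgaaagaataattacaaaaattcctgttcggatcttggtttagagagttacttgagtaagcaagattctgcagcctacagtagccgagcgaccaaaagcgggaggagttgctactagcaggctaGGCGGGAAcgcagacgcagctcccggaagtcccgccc
RefSeq starts gave 36 promoters for 32 of the 41 genes, against 32536 promoters in all. GGCGGGAA was present in 4 of the 36 (11.1%, against 1.87% of all promoters), those of Fancb, Fancm, Mdc1 and Rnf168. TTTCGCGC and TTTGGCGC were present in 0 of the 36 (0.258% and 0.421% of all). CCAAT was present in 17 (47.2%, against 33.8%), and the Dclre1c promoter held it 3 times on the strand opposite to the gene. TTTGAA, the cell cycle homology element of genes expressed in G2 and M phase, was present in 2 (5.56%, against 15.8%), those of Bard1 and Polq. No matches overlapped in the 4 sequences shown. A match is a description of letters in this window and shows no binding.

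Depth ran from 31.8 to 54.0 M counts per tumour (median 41.2 M), so that counting error was small beside the spread between tumours, with a biological coefficient of variation of 0.375 in the allograft fit and 0.4995 in the primary fit. Levels are CPM, counts scaled to the library size, with edgeR's TMM factors computed over all 48 tumours. Of the primary tumours, 2 held over 4% of their counts in 8 skeletal muscle genes (4.46% in replicate 4 of 20 Gy with isotype and 7.00% in replicate 4 of 20 Gy with anti-PD-1). Another 2 irradiated primary tumours stood above the rest of their groups in cell cycle and repair genes: replicate 8 of 20 Gy with isotype, where the 41 genes summed to 1202 CPM against 517 to 795 CPM in the other 7, and replicate 5 of 20 Gy with anti-PD-1, at 1034 CPM against 586 to 786 CPM. In bulk RNA, fewer cells that express a gene and less RNA of it per cell cannot be told apart.

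In unirradiated tumours given isotype, levels per length of exon spanned a wide range across the 41 genes. Parp1, which binds DNA breaks and makes poly(ADP-ribose), had the highest level, with 23.6 CPM per kb in primary tumours and 19.3 CPM per kb in allografts. The Ku subunit Xrcc5 followed with 17.0 and 13.6 CPM per kb, ahead of Nbn of the MRN complex with 12.6 and 11.01 CPM per kb. The other Ku subunit, Xrcc6, had 10.4 and 8.86 CPM per kb. At the lower end stood Brca2 with 0.911, Atr with 0.830 and the ubiquitin ligase Rnf8 with 0.168 CPM per kb in primary tumours. The lengths are those of all annotated exons merged, and retained introns in the annotation lengthen some genes and lower their values per kb.

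**Figure D1:**
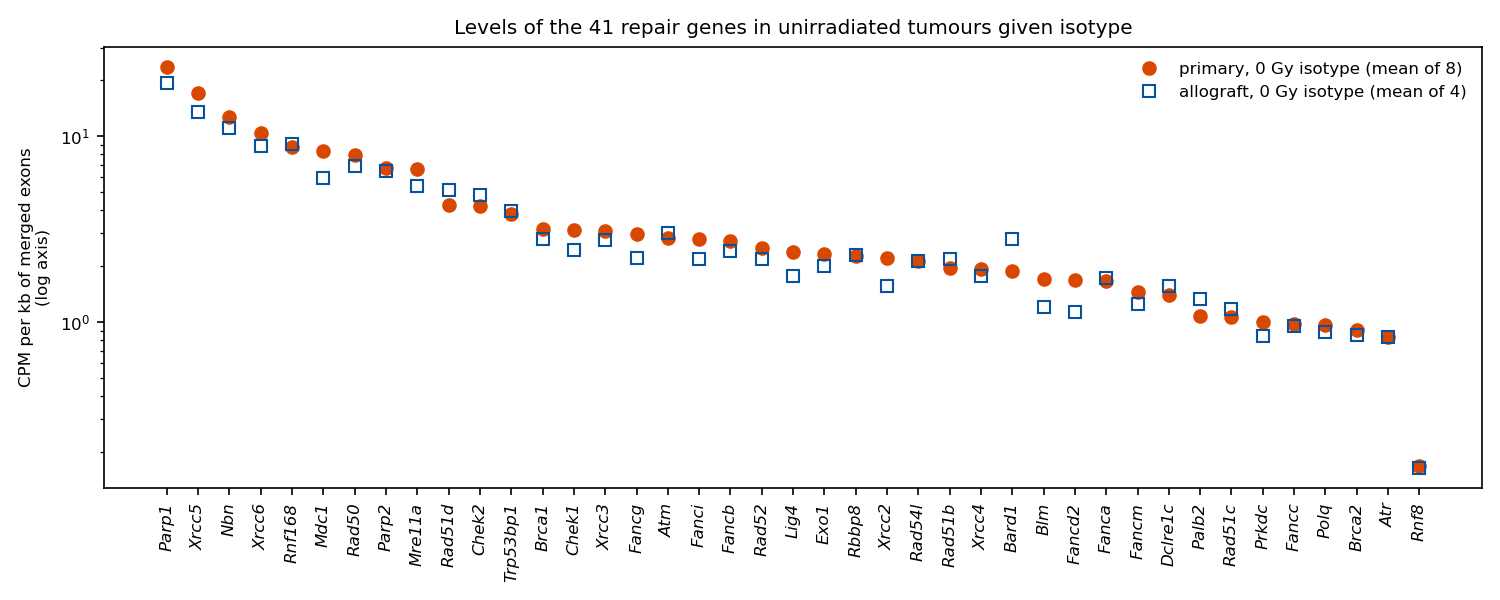
Mean CPM per kb of merged exons (log axis) of the 41 repair genes in primary tumours (filled circles, mean of 8) and allografts (open squares, mean of 4) at 0 Gy with isotype, ordered by the primary level. Parp1 and Xrcc5 lead in both kinds and Rnf8 is lowest in the primary tumours at 0.168 CPM per kb.

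After 20 Gy few of the 41 genes passed the test at either antibody taken alone, and the 1 that did so under both antibodies in primary tumours was Dclre1c, which was higher. In primary tumours given isotype, edgeR's quasi-likelihood test, with Benjamini-Hochberg adjustment over all 17770 genes and a call at an adjusted p below 0.05, called 1 gene higher (7.85% of all genes were called higher) and 5 lower (6.64% of all genes). In primary tumours given anti-PD-1 it called 1 higher (6.06% of all genes) and 0 lower (1.86%; 7.92% in either direction), with 16 of 41 at an unadjusted p below 0.05 (23.6% of all genes), and DESeq2 called 6 (12.3% of all genes). In the allografts it called 0 with isotype (5.14% of all genes, 4.4% higher and 0.744% lower) and 0 with anti-PD-1 (3.96%, 3.13% higher and 0.828% lower), with 3 and 15 of 41 at an unadjusted p below 0.05. These are 7.32% and 36.6% of the members, beside 18.2% and 19.5% of all genes. DESeq2 called 2 and 5 members there (4.88% and 12.2%), beside 8.62% and 9.38% of all genes. The count of 6 in primary tumours given isotype is 14.6% of the members, beside 14.5% of all genes called in either direction.

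The direction of the fold changes leaned to lower values. The median log2 fold change of the 41 genes was -0.07 in allografts with isotype, -0.32 in allografts with anti-PD-1, and -0.30 in primary tumours under either antibody, while the median over all genes lay between -0.02 and 0.02. In the same order, 28, 34, 35 and 32 of the 41 were below 0, against 50.2%, 48.3%, 51.8% and 47.7% of all genes. The 4 comparisons share no tumours, and 26 of the 41 genes (63.4%) were below 0 in all 4, beside 19.9% of 17167 genes tested in all 4. Dclre1c, Fancg and Rad51d were above 0 in all 4, 7.32% of the members beside 21.3% of all genes. Fancg and Rad51d had values of at most 0.19 and were not called.

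**Figure D2:**
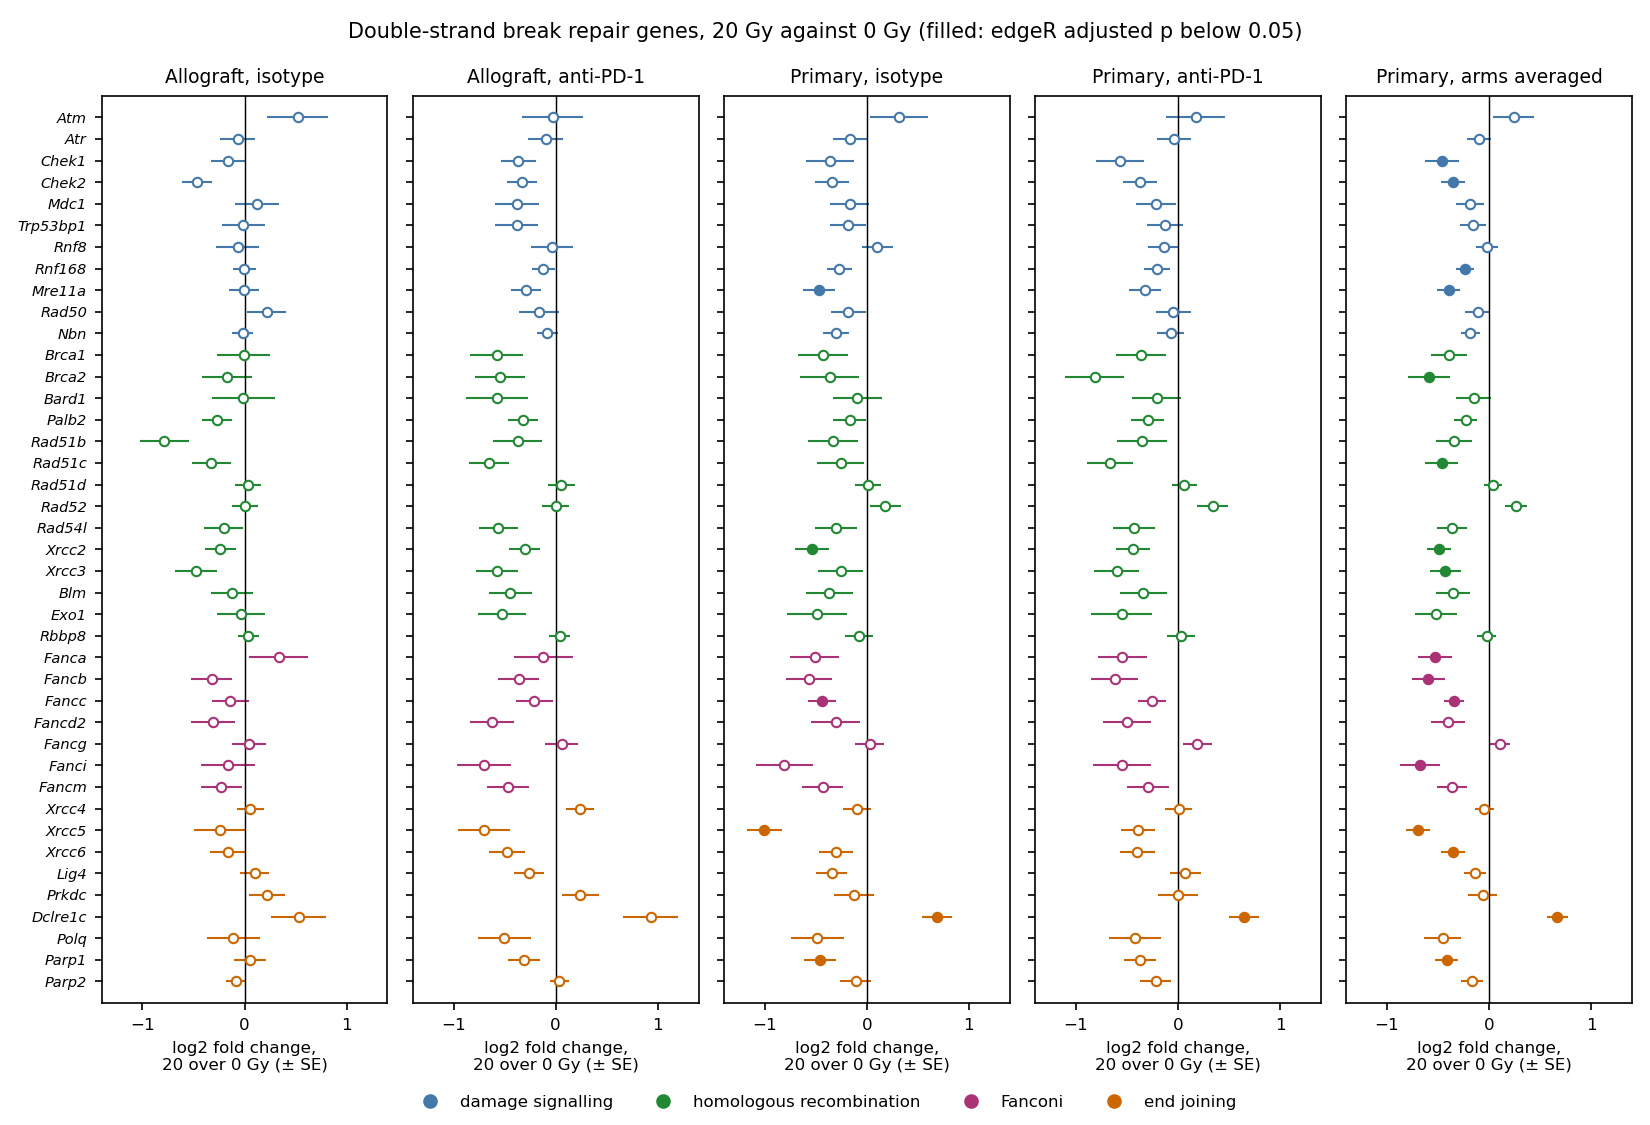
Log2 fold change at 20 Gy over 0 Gy (± SE) of each of the 41 genes, coloured by pathway, in the 4 dose comparisons and in primary tumours with both antibody arms averaged; filled points passed edgeR's test. Most points lie left of 0, and Dclre1c lies right of 0 in every panel.

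Averaging the 2 antibody arms in 1 contrast, a comparison added after the data were seen, used all tumours of a kind. In primary tumours it called 16 of 41 members, 1 higher (14.6% of all genes) and 15 lower (11.7% of all genes). In allografts it called 5, of which 1 was higher (9.56% of all genes) and 4 lower (4.14%). Dclre1c, Chek2, Xrcc3 and Rad51c were called in both kinds, and Rad51b in the allografts alone. Rad51b was also below 0 in primary tumours, at log2 values of -0.33 with isotype and -0.35 with anti-PD-1, which were not called. The share lower among the members was 36.6% in primary tumours, above the share of all genes, and no test of the list as a set was made. Without the 2 primary tumours rich in muscle RNA, 10 members were called, and the counts with each tumour left out ran from 11 to 23. Shares of all genes in these refits are not given here.

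Among the end joining genes, the nuclease Artemis rose. Its gene, Dclre1c (ENSMUSG00000026648), spans chr2:3424131-3464130 on the plus strand of GRCm38. Dclre1c in primary tumours had a lowest, median and highest level of 10.3, 13.4 and 14.9 CPM at 0 Gy with isotype and of 14.8, 21.1 and 24.3 CPM at 20 Gy with isotype. The groups overlapped in 1 irradiated tumour, replicate 2 at 14.8 CPM, which lay below the highest unirradiated value. With anti-PD-1 the levels were 8.66, 13.5 and 16.5 CPM at 0 Gy and 14.6, 20.4 and 27.4 CPM at 20 Gy. The log2 fold change was 0.69 ± 0.15 (SE; edgeR adjusted p = 0.00166) with isotype and 0.65 ± 0.15 (adjusted p = 0.00623) with anti-PD-1, and it stayed called under every alternative tried, with adjusted p from 8.11e-05 to 0.0048 and from 0.000763 to 0.0364.

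In the allografts, Dclre1c was at 14.1, 13.2, 15.3 and 15.9 CPM at 0 Gy with isotype and at 24.9, 19.1, 20.5 and 18.7 CPM at 20 Gy with isotype. All 4 irradiated tumours were above all 4 unirradiated ones, as for 9.84% of all genes. With isotype, 1 member was higher and 3 (Chek2, Palb2 and Xrcc3) were lower without overlap (4.77% of all genes), and with anti-PD-1 6 were lower without overlap (3.46% of all genes): Chek1, Rad51c, Rad54l, Xrcc3, Exo1 and Fanci. In the isotype arm the animal identifiers of all 4 unirradiated allografts start with 5 and those of 3 of the 4 irradiated ones with 4, so that dose and identifier series are nearly the same split there. With anti-PD-1 the 4 unirradiated tumours were at 17.9, 14.2, 17.2 and 8.62 CPM and the irradiated ones at 16.8, 45.9, 26.4 and 20.8 CPM. These groups overlapped, and replicate 2 at 45.9 CPM stood highest of all tumours. Of its group, that tumour also had the lowest summed mitosis list (393 CPM) and the highest summed myeloid and p53 target lists (5815 and 1409 CPM), whose part in its Dclre1c level was not tested. The log2 fold changes were 0.53 ± 0.27 (SE; edgeR adjusted p = 0.317) and 0.93 ± 0.27 (adjusted p = 0.0666), and with the arms averaged 0.73 ± 0.19 (adjusted p = 0.0179, from 0.00258 to 0.122 over the alternatives). Without replicate 2 of the irradiated allografts given anti-PD-1, the value in that arm was 0.57 (adjusted p = 0.233) and the averaged one 0.55 (adjusted p = 0.0316). Among the alternatives run, the averaged call was lost only with Xist as a covariate. Of the exons of Dclre1c, 3.83% overlap the antisense gene Suv39h2, and since the strand setting of the counting is not given, those reads cannot be told apart.

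Xrcc5, the larger Ku subunit (ENSMUSG00000026187, chr1:72307421-72394952, plus strand of GRCm38), fell. Its lowest, median and highest levels in primary tumours were 31.5, 43.0 and 56.6 CPM at 0 Gy with isotype and 14.7, 21.5 and 28.0 CPM at 20 Gy with isotype. No irradiated tumour reached the lowest unirradiated one, and Xrcc5 was the only member whose groups did not overlap in this comparison (0.439% of all genes were lower without overlap). The log2 fold change was -1.004 ± 0.17 (SE; edgeR adjusted p = 0.000199; 4.73e-07 to 0.00129 over the alternatives). With anti-PD-1 the levels were 27.1, 36.5 and 43.0 CPM at 0 Gy and 17.0, 24.9 and 44.3 CPM at 20 Gy. That difference was smaller, -0.39 ± 0.17 on the log2 scale, and was not called (adjusted p = 0.157, from 0.0276 to 0.314 over the alternatives). The highest irradiated value, 44.3 CPM, was that of replicate 5, the tumour that stood apart in cell cycle genes. The difference between the 2 antibody arms in the effect of dose was not called for any member.

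Xrcc5 in allografts was at 38.4, 40.4, 31.9 and 27.7 CPM at 0 Gy and 31.4, 28.6, 22.9 and 32.5 CPM at 20 Gy with isotype. With anti-PD-1 it was at 28.6, 45.6, 29.5 and 38.8 CPM at 0 Gy and at 33.8, 13.6, 16.3 and 23.0 CPM at 20 Gy, where 3 of 4 irradiated tumours lay below all unirradiated ones. Neither difference was called, with log2 fold changes of -0.24 ± 0.25 and -0.70 ± 0.25 (SE; edgeR adjusted p = 0.688 and 0.138). Adjusted p for the anti-PD-1 arm ran from 0.0361 to 0.363 over the alternatives.

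The partner subunit Xrcc6 was not called at either antibody alone. Over the alternatives its adjusted p ran from 0.0245 to 0.436 in primary tumours given isotype. In primary tumours its lowest, median and highest levels were 35.4, 48.2 and 54.4 CPM at 0 Gy and 22.7, 34.7 and 68.1 CPM at 20 Gy with isotype, with overlap because replicate 8 held the 68.1 CPM. With the arms averaged the log2 fold change was -0.35 ± 0.12 (SE; edgeR adjusted p = 0.0278), which was not called without the tumours rich in muscle RNA (adjusted p = 0.06) or without replicate 6 of 0 Gy with anti-PD-1 (0.0507). Of its exon bases, 7.69% overlap the antisense gene Desi1. Parp1 went from 88.7, 126.3 and 164 CPM at 0 Gy to 51.3, 83.6 and 132.4 CPM at 20 Gy in primary tumours given isotype. Its ranges overlapped widely, and its log2 fold change of -0.46 ± 0.16 (adjusted p = 0.0492) lay at the threshold, with adjusted p from 0.0184 to 0.138 over the alternatives and the call lost in 29 of 41 of them. With the arms averaged it was -0.42 ± 0.11 (adjusted p = 0.0068) and stayed called throughout (0.0014 to 0.0159).

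Polq, the polymerase of the alternative route, went from a median of 8.68 CPM (6.88 to 14.1) at 0 Gy to 6.80 CPM (3.33 to 9.62) at 20 Gy in primary tumours given isotype, a log2 difference of -0.48 ± 0.26 (SE; edgeR adjusted p = 0.211) that was not called. With the arms averaged Polq was not called either, with adjusted p from 0.0112 to 0.11 over the alternatives. The remaining genes of direct joining showed values closer to 0 and no calls. With the arms averaged in primary tumours, Prkdc, Lig4, Xrcc4 and Parp2 had log2 fold changes of -0.06 ± 0.14, -0.14 ± 0.11, -0.05 ± 0.10 and -0.16 ± 0.11. Of the 9 end joining genes, 1 was higher (14.6% of all genes), 3 lower (11.7%) and 5 not called in that contrast.

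Among the recombination genes, the paralogues that assist the recombinase accounted for most calls. Xrcc2 in primary tumours had a lowest, median and highest level of 8.94, 11.2 and 15.1 CPM at 0 Gy and 5.78, 7.496 and 11.7 CPM at 20 Gy with isotype. All but 1 irradiated tumour, replicate 8, lay below the unirradiated range. The log2 fold change was -0.53 ± 0.17 (SE; edgeR adjusted p = 0.0276), and it missed the threshold without any filter on low counts (0.0575) and without replicate 2 of the unirradiated or replicate 3, 5 or 7 of the irradiated group (0.052 to 0.0717). With the arms averaged Xrcc2 was called under all alternatives, at -0.49 ± 0.12 (adjusted p = 0.00253; 0.000227 to 0.00656).

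Xrcc3 was lower in both kinds with the arms averaged. In the allografts it was at 8.04, 7.58, 7.29 and 7.62 CPM at 0 Gy and at 6.42, 5.75, 4.49 and 4.91 CPM at 20 Gy with isotype, without overlap. With anti-PD-1 it was at 5.59, 6.90, 5.83 and 8.09 CPM at 0 Gy and at 5.38, 2.92, 4.02 and 5.20 CPM at 20 Gy, again without overlap. The averaged log2 fold change was -0.53 ± 0.15 (SE; edgeR adjusted p = 0.0255) in allografts and -0.43 ± 0.16 (adjusted p = 0.0413) in primary tumours, and adjusted p ran up to 0.107 and 0.0674 over the alternatives.

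Rad51c was likewise lower, by -0.49 ± 0.14 (SE; edgeR adjusted p = 0.0264) in allografts and -0.46 ± 0.16 (adjusted p = 0.0323) in primary tumours on the log2 scale. Both calls were lost under some alternatives, with adjusted p from 0.000741 to 0.123 in allografts and from 0.00522 to 0.0717 in primary tumours. In allografts these were the fits without replicate 1 of 0 Gy with isotype, replicate 2 of 0 Gy with anti-PD-1 or replicate 2 of 20 Gy with isotype, without a filter, and of all 48 tumours. In primary tumours they were the fits without a filter, without the 2 muscle-rich tumours, and without any 1 of replicates 6 and 8 of 0 Gy with anti-PD-1, 3 and 5 of 20 Gy with isotype, and 3, 4 and 7 of 20 Gy with anti-PD-1. With anti-PD-1, the 4 unirradiated allografts were at 4.71, 6.26, 5.46 and 6.87 CPM and the irradiated ones at 3.87, 3.33, 2.92 and 4.52 CPM, with no overlap. Rad51b was called in the allografts, at -0.58 ± 0.17 (adjusted p = 0.0335), and the call was lost in 14 of 23 alternatives. Its unirradiated allografts with isotype were at 9.40, 9.19, 4.57 and 9.64 CPM and the irradiated ones at 6.19, 4.37, 3.56 and 4.61 CPM, with replicate 3 the low one at 0 Gy. Rad51d was not called in any comparison and had log2 values from 0.01 to 0.06 in the 4 dose comparisons.

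The genes at the head of recombination were not called at either antibody taken alone. Brca1, the scaffold that commits a break to recombination, had a lowest, median and highest level of 16.1, 25.5 and 36.7 CPM at 0 Gy and 9.27, 18.9 and 39.8 CPM at 20 Gy in primary tumours given isotype. The highest irradiated value was that of replicate 8, and the other 7 reached at most 22.2 CPM. The log2 difference was -0.43 ± 0.25 (SE; edgeR adjusted p = 0.253), and -0.39 ± 0.17 (adjusted p = 0.0921, from 0.0195 to 0.147 over the alternatives) with the arms averaged. In allografts given anti-PD-1, Brca1 was at 19.8, 29.4, 21.7 and 26.0 CPM at 0 Gy and 19.1, 8.45, 12.6 and 23.8 CPM at 20 Gy, with a log2 difference of -0.58 ± 0.26 (adjusted p = 0.238, from 0.0453 to 0.496 over the alternatives). Replicates 2 and 3 of that group were low in Brca1 and also lowest in the summed mitosis list, at 393 and 629 CPM. They were also the highest of that group in the myeloid list (5815 and 4202 CPM against 2654 and 2030 CPM) and the lymphocyte list (171 and 166 CPM against 63.1 and 77.8 CPM), and the part of these in the low Brca1 was not tested. Brca2, which loads the recombinase, was called with averaged arms in primary tumours, at -0.59 ± 0.20 (SE; edgeR adjusted p = 0.0307). Palb2, which joins Brca1 to Brca2, had allograft ranges without overlap with isotype, at a log2 difference of -0.27, and was not called. Bard1, the partner of Brca1, Blm, a helicase that undoes joint molecules, Exo1 and Rad54l had averaged values of -0.15 ± 0.17, -0.35 ± 0.16, -0.52 ± 0.21 and -0.37 ± 0.15 in primary tumours and were not called, and Rbbp8, which starts resection, was at -0.02 ± 0.10. Rad52, an annealing factor, had values above 0 in primary tumours, 0.26 ± 0.11 with averaged arms, and was not called.

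Of the Fanconi genes, 4 of 7 were called lower with averaged arms in primary tumours (11.7% of all genes). In allografts 0 were called lower (4.14% of all genes) and 4 had an unadjusted edgeR p below 0.05 (26.6% of all genes), and for no member was the change with dose called different between the kinds. Fancb, a subunit of the core ubiquitin ligase complex, had a lowest, median and highest level of 5.74, 7.85 and 13.5 CPM at 0 Gy and 4.07, 5.06 and 7.83 CPM at 20 Gy with isotype, and 4.86, 6.28 and 12.5 CPM against 2.16, 4.62 and 7.96 CPM with anti-PD-1. Its averaged log2 fold change was -0.59 ± 0.16 (SE; edgeR adjusted p = 0.00656; 0.00127 to 0.014 over the alternatives). Fancc, of the same complex, went from 6.28, 7.98 and 11.03 CPM to 4.77, 5.80 and 7.24 CPM with isotype, a log2 fold change of -0.44 ± 0.14 (adjusted p = 0.0309; 0.0122 to 0.0994). Of its exon bases, 18.6% overlap antisense genes, so its counts are uncertain. Fanci, a partner of Fancd2 in the clamp at crosslinks, and Fanca were lower by -0.68 ± 0.20 (SE; edgeR adjusted p = 0.0123) and -0.53 ± 0.17 (SE; edgeR adjusted p = 0.021) with averaged arms. Fancd2 and Fancm were at -0.40 ± 0.17 and -0.36 ± 0.14 and Fancg at 0.11 ± 0.10, none of them called. For Fancd2, adjusted p ran from 0.0116 to 0.116 over the alternatives. Antisense genes overlap 15.95% of the exon bases of Fanci and 10.5% of those of Fanca.

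Among the damage signalling genes, Mre11a, the nuclease of the MRN complex, was the one called at a single antibody. In primary tumours given isotype it had a lowest, median and highest level of 26.3, 39.2 and 48.7 CPM at 0 Gy and 19.4, 26.1 and 45.7 CPM at 20 Gy. The ranges overlapped at both ends, since replicate 7 was lowest among the unirradiated tumours and replicate 8 highest among the irradiated ones. The log2 fold change was -0.47 ± 0.16 (SE; edgeR adjusted p = 0.0401; 0.00515 to 0.102 over the alternatives), and -0.39 ± 0.11 (adjusted p = 0.00876) with the arms averaged. Its partners Rad50 and Nbn had averaged values of -0.11 ± 0.12 and -0.19 ± 0.09 and were not called. Nor were Atr at -0.10 ± 0.12, the break-binding scaffolds Mdc1 and Trp53bp1 at -0.19 ± 0.14 and -0.16 ± 0.12, and Rnf8 at -0.02 ± 0.11.

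The checkpoint kinase Chek2 was lower in both kinds with averaged arms. Allografts with isotype were at 14.4, 15.3, 13.4 and 14.8 CPM at 0 Gy and at 12.8, 9.04, 9.65 and 9.88 CPM at 20 Gy, without overlap. The averaged log2 fold change was -0.40 ± 0.10 (SE; edgeR adjusted p = 0.0192; up to 0.0834) in allografts and -0.36 ± 0.12 (adjusted p = 0.0237; up to 0.0539) in primary tumours. Chek1, the kinase downstream of Atr, and the ubiquitin ligase Rnf168 were called with averaged arms in primary tumours at -0.46 ± 0.17 (SE; edgeR adjusted p = 0.0369) and -0.24 ± 0.09 (SE; edgeR adjusted p = 0.0489). Atm had log2 values above 0 in 3 of the 4 dose comparisons and a wide spread, with 13.0, 26.6 and 45.5 CPM at 0 Gy and 16.8, 30.7 and 88.2 CPM at 20 Gy in primary tumours given isotype. Its log2 differences of 0.31 ± 0.29 there and 0.52 ± 0.30 in allografts given isotype were not called (adjusted p = 0.488 and 0.39; without replicate 8 of the irradiated primary tumours the first was 0.0044, and without replicate 4 of the irradiated allografts the second was 0.28), and in allografts given anti-PD-1 it was -0.03 ± 0.30 (adjusted p = 0.972).

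**Figure D3:**
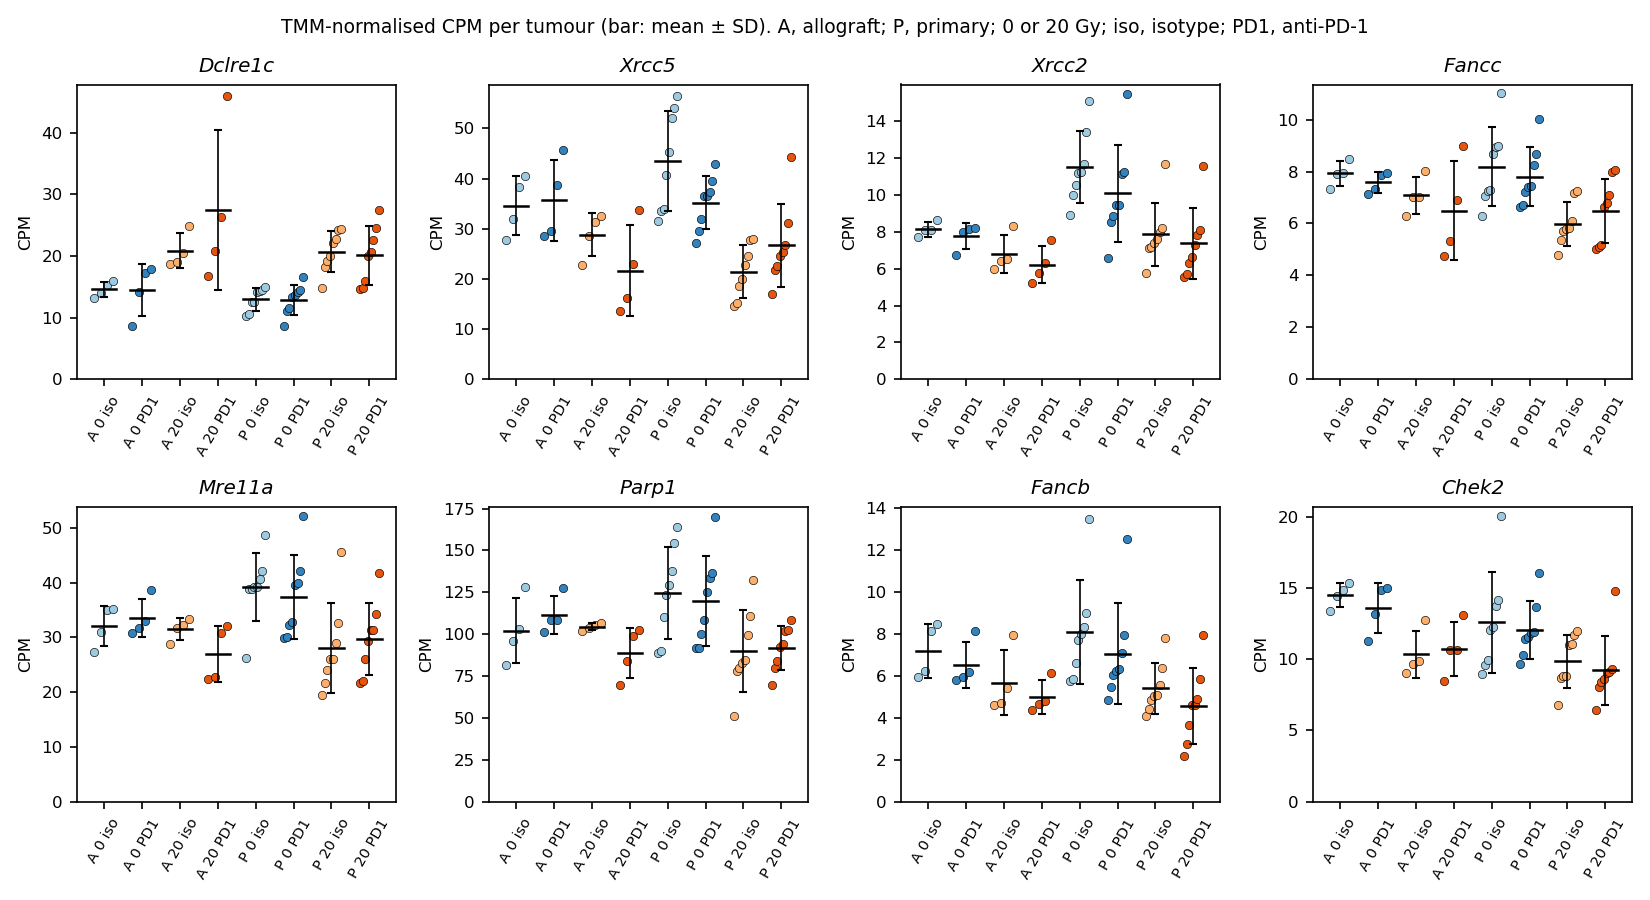
CPM in every tumour (points), with mean and SD (bars), of 8 repair genes in the 8 groups; A is allograft, P primary, 0 and 20 the dose in Gy. Dclre1c is higher after 20 Gy, and Xrcc5 at 20 Gy with isotype in primary tumours lies between 14.7 and 28.0 CPM, below all 8 unirradiated values.

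Single tumours moved these counts. The share of all genes called in each refit is not given here, so the movements cannot be read as particular to these genes. Leaving out each tumour in turn, the count in primary tumours given isotype was 11 without replicate 8 of the irradiated group, 2 without its replicate 5 or 7, and 3 without its replicate 1 or 3 or without replicate 2, 3 or 8 of the unirradiated group. With anti-PD-1 it was 8 without replicate 5 of the irradiated primary tumours, and 2 without replicate 2 or 5 of the unirradiated group or replicate 8 of 20 Gy with isotype. In allografts given anti-PD-1 it was 10 without replicate 4 of the irradiated group, 3 without its replicate 1 and 1 without replicate 1 of the unirradiated group. In allografts given isotype it was 1 without replicate 3 of the unirradiated group. With the arms averaged in allografts it was 11 without replicate 4 of 20 Gy with anti-PD-1, 2 without replicate 1 of 0 Gy with isotype, and 3 without replicate 2, 3 or 4 of 20 Gy with isotype.

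Antibody alone moved none of the 41 genes past the threshold. edgeR called 0 members for anti-PD-1 against isotype at either dose in either kind of tumour (0.0% of all genes in each of the 4 comparisons), DESeq2 called 0, and 0, 0, 0 and 1 of 41 had an unadjusted p below 0.05 (1.68%, 3.84%, 2.32% and 8.12% of all genes). The widest values were those of irradiated allografts, where the median log2 difference was -0.24 (-0.56 to 0.37). The effect of 20 Gy was not shown to differ between antibodies (0 members and 0.0% of all genes in either kind by edgeR, 0 by DESeq2, 0 in allografts and 1 in primary tumours at an unadjusted p below 0.05, beside 1.52% and 4.25% of all genes). Nor was it shown to differ between allografts and primary tumours: edgeR called 0 members with isotype (0.00517% of all genes), 0 with anti-PD-1 (0.0%) and 0 with the arms averaged (0.0259%, 0.0103% higher and 0.0155% lower), DESeq2 called 0, and 2, 0 and 1 had an unadjusted p below 0.05 (9.9%, 4.77% and 8.56% of all genes).

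Between unirradiated primary tumours and allografts given isotype, Fancd2, the clamp subunit that is ubiquitinated at crosslinks, was the 1 member called higher in primary tumours (6.03% of all genes), and 0 were called lower (3.99%); DESeq2 called 2 higher and 1 lower (7.32% of the members, beside 16.5% of all genes in either direction). Fancd2 was at 9.71, 7.72, 9.73 and 8.83 CPM in the allografts and had a lowest, median and highest level of 10.3, 13.8 and 15.3 CPM in the primary tumours, without overlap. The log2 fold change was 0.56 ± 0.16 (SE; edgeR adjusted p = 0.045; 0.00495 to 0.152 over the alternatives). Xrcc2 did not overlap either, with 7.70 to 8.66 CPM against 8.94 to 15.1 CPM, and was not called (adjusted p = 0.0687); 2 of 41 members were higher without overlap, against 4.7% of all genes. The call of Fancd2 was lost without any 1 of the 4 allografts, without primary replicate 1, 5, 6 or 8, and without a filter on low counts, whereas 2 members were called without primary replicate 4. All 8 of these primary tumours and 0 of the 4 allografts had an animal identifier starting with 4, so that kind and identifier series cannot be told apart. The 4 allografts grew from 1 line, so on their side these p-values measure spread between grafts and cover no other tumour of origin.

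The other genes of these pathways gave a wider view. Of 69 further repair genes listed, 68 were found. In primary tumours given isotype edgeR called 1 higher and 5 lower of 68, with anti-PD-1 0 and 1, and in allografts 0 under either antibody (5 and 13 at an unadjusted p below 0.05, beside 18.2% and 19.5% of all genes). With the arms averaged, 3 were higher and 11 lower in primary tumours (14.6% and 11.7% of all genes). Their median log2 fold change in primary tumours given isotype was -0.14, beside -0.30 for the 41 genes. Tdp1, which removes topoisomerase 1 from DNA ends, had a median of 27.7 CPM (23.8 to 36.6) at 0 Gy and 15.6 CPM (12.6 to 25.5) at 20 Gy with isotype, a log2 fold change of -0.67 ± 0.16 (SE; edgeR adjusted p = 0.00502). With anti-PD-1 it was -0.63 ± 0.16 (adjusted p = 0.0136). H2afx, whose histone product is phosphorylated beside breaks, went from a median of 94.0 CPM (54.1 to 163) to 62.2 CPM (36.5 to 80.7) with isotype, a log2 fold change of -0.77 ± 0.23 (adjusted p = 0.021). Mad2l2, of the shieldin complex that protects ends from resection, was the gene called higher, from 11.6 CPM (10.5 to 13.8) to 14.7 CPM (13.4 to 17.6), a log2 fold change of 0.37 ± 0.11 (adjusted p = 0.0193).

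Lists of cell cycle genes and p53 targets were examined in the same comparisons. Of 14 mitosis genes, 11 were called lower in primary tumours given isotype, 7 with anti-PD-1, 1 in allografts with isotype and 4 in allografts with anti-PD-1, and none was called higher. The summed level of the mitosis list in primary tumours ranged from 801 to 1583 CPM at 0 Gy and from 342 to 1285 CPM at 20 Gy with isotype, and from 837 to 1993 CPM against 304 to 1176 CPM with anti-PD-1. In allografts the ranges were 1101 to 1388 CPM against 864 to 991 CPM with isotype and 1129 to 1632 CPM against 393 to 1057 CPM with anti-PD-1. The mitosis sums of allografts given isotype did not overlap between doses, whereas those of the 41 repair genes did, at 749.9 to 903 CPM against 779 to 893 CPM. Mki67, a marker of cycling cells, fell by 0.80 ± 0.25 on the log2 scale in primary tumours given isotype (SE; edgeR adjusted p = 0.0315). Of 10 DNA replication genes 0 were called with isotype in primary tumours, where 4 had an unadjusted p below 0.05 (28.8% of all genes), and all 10 values were below 0. With anti-PD-1 1 was called lower in primary tumours (Mcm5, at -0.73 ± 0.23, edgeR adjusted p = 0.0486), and in allografts 0 were called under either antibody, with 0 and 2 at an unadjusted p below 0.05 (18.2% and 19.5% of all genes) and medians of 0.00 with isotype and -0.47 with anti-PD-1. Mcm2, a subunit of the replicative helicase, was at -0.60 ± 0.23 in primary tumours given isotype (SE; edgeR adjusted p = 0.0801). Of 10 known p53 target genes, 6 were higher in primary tumours given isotype (7.85% of all genes), 5 in primary tumours given anti-PD-1 (6.06%), 3 in allografts given isotype (4.4%) and 5 in allografts given anti-PD-1 (3.13%), and none was lower. In p53FL/FL mice Cre deletes p53 in the cells it enters, and which cells held the RNA of these targets was not tested. Cdkn1a, the cell cycle inhibitor p21, rose on the log2 scale by 2.22 ± 0.25 (edgeR adjusted p = 1.95e-06) and 2.46 ± 0.25 (adjusted p = 3.76e-07) in primary tumours, and by 1.79 ± 0.26 (adjusted p = 0.00174) and 1.75 ± 0.26 (adjusted p = 0.00483) in allografts, with isotype and anti-PD-1 in that order.

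Markers of other cell types were examined beside these. Of 8 myeloid genes, 4 were higher in primary tumours given isotype, where their sum ranged from 1048 to 2714 CPM at 0 Gy and 1634 to 4484 CPM at 20 Gy. With anti-PD-1 2 were higher, and the sums ranged from 1017 to 2283 CPM against 1446 to 5665 CPM. In allografts 1 was higher with isotype (1504 to 1888 CPM against 2044 to 2544 CPM) and 2 with anti-PD-1 (1114 to 3025 CPM against 2030 to 5815 CPM). The 8 skeletal muscle genes, none of them called in these 4 comparisons, summed to 64.1 to 6097 CPM at 0 Gy and 293 to 46230 CPM at 20 Gy in primary tumours given isotype. In primary tumours given anti-PD-1 they summed to 75.4 to 7785 CPM at 0 Gy and 13.3 to 82040 CPM at 20 Gy. With the muscle list as a covariate, edgeR called 5 members in primary tumours given isotype, 4 with anti-PD-1 and 16 with averaged arms, and without the 2 muscle-rich tumours 5, 1 and 10. Shares of all genes called in those fits are not given here, so these counts cannot be read as particular to the members. Of 7 mesenchymal genes, Vim was lower in primary tumours under both antibodies and the other 6 were not called. Their summed median went from 22090 CPM (16840 to 37250) to 14050 CPM (9469 to 39290) with isotype and from 24440 CPM (13730 to 38890) to 13390 CPM (10270 to 60200) with anti-PD-1. In allografts 0 of 7 were called, with sums of 10150 to 14090 CPM against 6073 to 25500 CPM with isotype and 9860 to 17080 CPM against 5754 to 17430 CPM with anti-PD-1. Of 9 lymphocyte genes, 0 were called in primary tumours and 1 was higher in allografts under each antibody. Their sums in primary tumours ranged from 15.0 to 67.9 CPM at 0 Gy and 7.99 to 118.5 CPM at 20 Gy with isotype, and from 21.7 to 95.6 CPM against 4.65 to 218 CPM with anti-PD-1. Of 6 endothelial genes, 1 was higher in allografts given isotype and 0 were called in the other 3 dose comparisons. The part of the myeloid, mesenchymal, lymphocyte and endothelial markers in the change of repair genes with dose was not tested.

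Among primary tumours of the same group, most repair genes varied together with the cell cycle lists. Each gene was compared with the mean log2 CPM of the 14 mitosis and 10 DNA replication genes after group means were subtracted, with 100000 permutations within groups and p-values adjusted over all genes. In the 32 primary tumours, 31 of the 41 genes were higher in tumours with higher lists (13.8% of 17942 genes), and 1 was lower (6.84%). Pearson's r ran from -0.65 to 0.96 with a median of 0.67, and 25 of 41 genes (61.0%) had an r of at least 0.6, against 8.23% of all genes, whose median r was 0.01. Ranks gave 29 genes past the threshold. All levels in CPM of a tumour share 1 library total.

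Exo1, the nuclease that resects break ends, had the highest r at 0.96 (permutation p = 1e-05, the smallest that these permutations can give; adjusted p = 0.000345; rho 0.90, permutation p = 1e-05), and 0.94 without the 2 tumours farthest from the median of the lists. Rad54l, a motor protein of strand exchange, followed with 0.91 (permutation p = 1e-05; rho 0.78, permutation p = 3e-05; 0.88 without those 2). Chek1 had an r of 0.89 (permutation p = 1e-05; rho 0.74, permutation p = 1e-05; 0.85 without those 2) and Brca1 of 0.89 (permutation p = 1e-05; rho 0.72, permutation p = 2e-05; 0.81 without those 2). Xrcc5 was related less closely, with an r of 0.66 (permutation p = 0.00019, adjusted 0.00287; rho 0.58, permutation p = 0.001; 0.61 without those 2). Atm had 0.59 (permutation p = 0.00086, adjusted 0.00868; rho 0.50, permutation p = 0.00616), falling to 0.44 without those 2 and not past the threshold by ranks (adjusted permutation p = 0.0517).

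Dclre1c ran the other way, with an r of -0.65 (permutation p = 0.0002, adjusted 0.003; rho -0.62, permutation p = 0.00061; -0.65 without those 2). It was thus higher in tumours with lower cell cycle lists within groups, and higher after 20 Gy between groups. The 9 genes not past the threshold were Atr, Chek2, Rnf8, Rad51b, Rad51d, Fancc, Fancg, Xrcc4 and Prkdc, with r from 0.00 to 0.44. Chek2 and Fancc are among the genes that fell after 20 Gy in primary tumours with averaged arms.

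**Figure D4:**
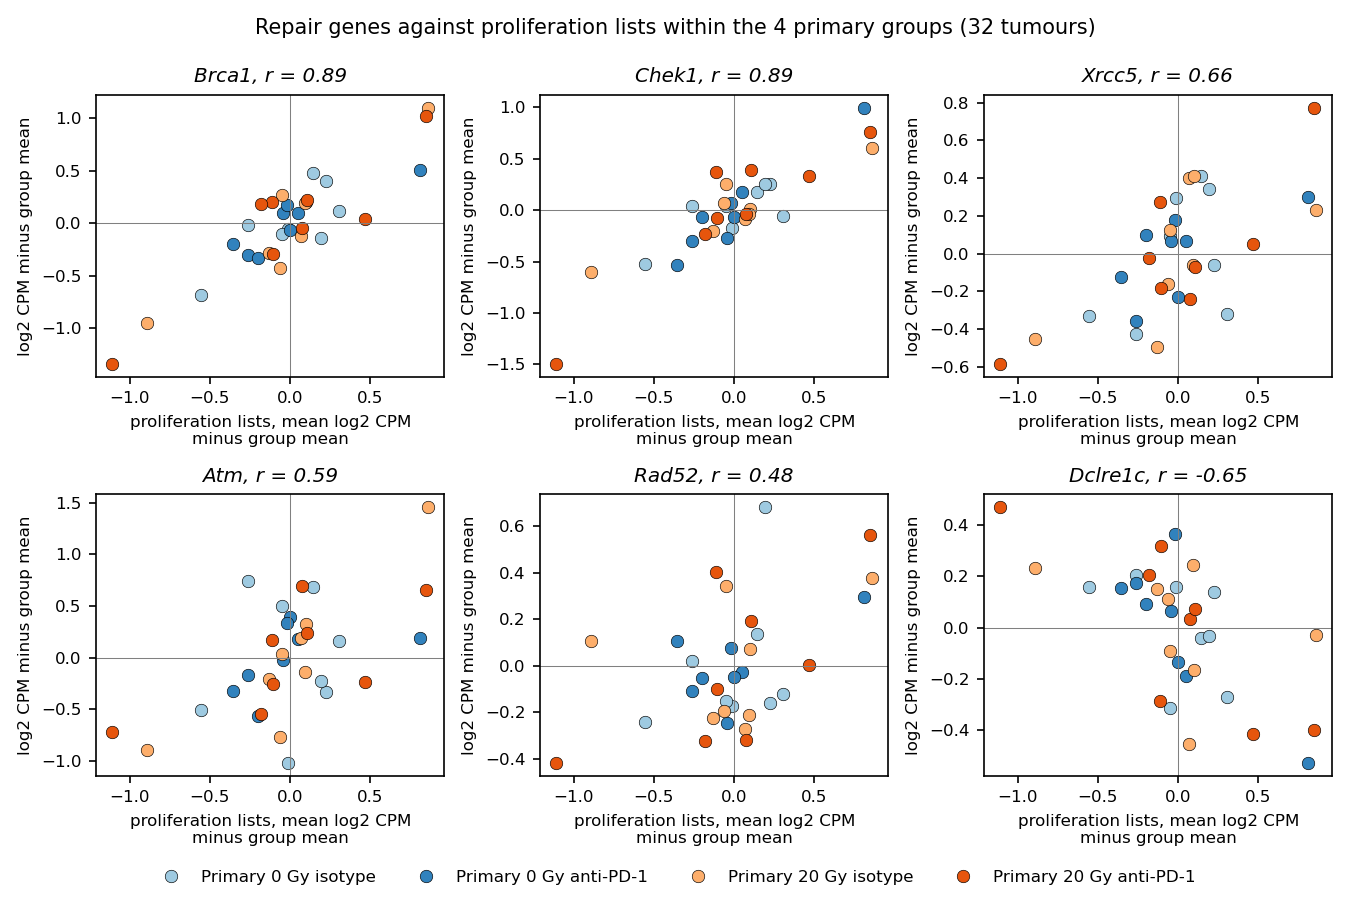
Log2 CPM of 6 repair genes against the mean log2 CPM of 24 mitosis and DNA replication genes, each minus its group mean, in the 32 primary tumours coloured by group. Brca1 and Chek1 rise with the lists (r = 0.89 each), Atm and Rad52 do so loosely, and Dclre1c declines (r = -0.65).

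In the 16 allografts the same relation had a median r of 0.52 (-0.85 to 0.96). Past the threshold were 2 genes higher with the lists (0.957% of all genes) and 0 lower (0.106%): Fanci, with an r of 0.96 (permutation p = 0.00041, adjusted 0.0458; rho 0.86, permutation p = 0.00177; 0.88 without the 2 farthest), and Mre11a, with 0.84 (permutation p = 0.00023, adjusted 0.0446; rho 0.93, permutation p = 0.00056; 0.85 without those 2). By ranks 0 passed. Dclre1c had an r of -0.85 (permutation p = 0.00458, adjusted 0.0919; rho -0.73, permutation p = 0.00934; -0.78 without those 2). With the myeloid list, a relation added after the data were seen, 10 of 41 genes were lower in primary tumours with more myeloid RNA (7.12% of all genes) and 0 higher (5.32%), or 6 by ranks; Trp53bp1, which shields ends from resection, had the lowest r at -0.70 (permutation p = 8e-05, adjusted 0.00563; rho -0.65, permutation p = 0.00038; -0.65 without the 2 farthest). Dclre1c had 0.35 (permutation p = 0.0563, adjusted 0.186; rho 0.36, permutation p = 0.0523). In allografts 0 of 41 passed, as did 0.0% of all genes in either direction.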

How the data were processed

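The deposited values were raw counts per gene in 48 tumours. Per the submitters' processing notes, the authors trimmed reads with Trimmomatic 0.36 and used STAR, HTSeq and mm10; the annotation and the strand setting of the counting are not given in the sources used here. Per the labels' protocols, libraries were strand-specific and poly(A)-selected, from RNA with RIN above 7. GENCODE M21 named 36796 of 36854 identifiers.

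Counts were fitted with edgeR 4.0.16 (R 4.3.3; TMM, filterByExpr, quasi-likelihood test, Benjamini-Hochberg over all genes, calls below 0.05), 1 fit per kind of tumour, and all 48 tumours for differences between kinds; the SE is the log2 fold change over the square root of F. DESeq2 1.42.0 and other settings were alternatives. Relations used log2(CPM + 0.5) and were adjusted over all genes, not over the members as first planned. On simulated data, 2-fold and 4-fold changes were recovered in 34% and 90% of genes (allograft, isotype) and 63% and 92% (primary, isotype). The changes were placed only in genes above a set expected count. No 2 libraries of the same group were duplicates: the chi-square per degree of freedom was at least 85.6 in each of 136 pairs within groups. Pairs from different groups were not compared.

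The members and lists were chosen with earlier results of these data known. Full values are given for called members with the smallest p (up to 4 in each direction of each dose and kind comparison), for Brca1, Atm, Xrcc6, Parp1 and Polq whatever their values, for up to 2 called other repair genes in each direction, and for Mki67, Mcm2 and Cdkn1a.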

Additional observations from a re-analysis of the deposited data

Results flagged for a closer look

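Among the groups of 4 or 8 tumours examined for the fully described genes, 18 (14.1% of those examined) held 1 tumour standing apart from the others by Dixon's test; chance gives about 1 in 20. Replicate 8 of primary tumours at 20 Gy with isotype was the highest for 6 genes. It held Brca1 at 39.77 CPM (others 9.267 to 22.22), Atm at 88.24 CPM (16.82 to 39.82), Xrcc6 at 68.14 CPM (22.73 to 40.79), Rad51c at 6.33 CPM (2.604 to 4.306), Xrcc2 at 11.66 CPM (5.784 to 8.207) and Fancd2 at 22.08 CPM (4.385 to 11.63). Replicate 5 of primary tumours at 20 Gy with anti-PD-1 was the highest for Brca1 at 38.44 CPM (7.114 to 21.92), Chek2 at 14.78 CPM (6.398 to 9.283), Rad51c at 6.316 CPM (1.753 to 3.763) and Xrcc2 at 11.58 CPM (5.571 to 8.126). The mitosis list summed to 1285 CPM in the former tumour and 1176 CPM in the latter, the highest of their groups; its part in these values was not tested.

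Among unirradiated primary tumours, replicate 5 with isotype was high in Chek2 at 20.01 CPM (8.955 to 14.16) and Fancb at 13.5 CPM (5.743 to 9.023), and replicate 7 was low in Mre11a at 26.25 CPM (38.9 to 48.69). Replicate 6 with anti-PD-1 was high in Rad51b at 14.57 CPM (4.553 to 7.976) and Fancb at 12.54 CPM (4.856 to 7.955). Among unirradiated allografts, replicate 3 with isotype was low in Rad51b at 4.57 CPM (9.187 to 9.641). With anti-PD-1, replicate 4 was low in Xrcc2 at 6.745 CPM (7.972 to 8.217) and replicate 1 high in Fancb at 8.137 CPM (5.783 to 6.162).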

How the results depend on the processing

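No paired analysis was possible because replicate numbers follow the order of the samples and pair nothing. Counts of members called moved by over 1.5 times as follows, and the cause was not tested. Where no share of all genes is printed for a refit, its count cannot be read as particular to the members. DESeq2 called 2 in allografts with isotype, 5 in allografts and 6 in primary tumours with anti-PD-1, 3 between kinds (16.5% of all genes, 7.32% of members) and 10 in allografts with averaged arms (18.4% and 24.4%). Without a filter on low counts, 2 were called in primary tumours with isotype, 0 between kinds and 1 in allografts with averaged arms. With all 48 tumours in 1 fit, 1 was called in allografts and 6 in primary tumours with anti-PD-1, and 1 in allografts with averaged arms. A fit of only the 2 groups called 3 in primary tumours with isotype, and the muscle list as a covariate 4 with anti-PD-1. In allografts with averaged arms, DESeq2 size factors gave 8 and Xist as a covariate 2. Without the 2 tumours rich in muscle RNA, 10 were called in primary tumours with averaged arms. By ranks, 0 members followed the cell cycle lists in allografts and 6, in place of 10, were lower with the myeloid list in primary tumours. Leaving out each tumour gave 0 to 1 in allografts with isotype, 0 to 10 with anti-PD-1, 2 to 11 in primary tumours with isotype, 1 to 8 with anti-PD-1, 0 to 2 between kinds, 2 to 11 in allografts and 11 to 23 in primary tumours with averaged arms, and 0 for every antibody and difference comparison. Over the single genes, 3138 values kept their direction and side of the threshold, 65 moved past it, 4.02% lost it and 22 changed sign, 0 of them called. These 22 came from 7 log2 values within 0.108 of 0; the cause was not tested. In allografts with isotype, Parp1 was -0.0751 with the identifier digit, -0.0113 with Xist as a covariate and -0.0495 to 0.1887 leaving out each tumour, and Mre11a was 0.0022 without a filter and -0.0811 to 0.0473 leaving out each tumour. Likewise, leaving out each tumour gave Brca1 -0.0967 to 0.0881 and Polq -0.1964 to 0.0014 there, and Atm -0.3784 to 0.1327 in allografts with anti-PD-1. Between kinds, Atm was 0.0348 with the muscle list as a covariate and -0.2457 to 0.0467 leaving out each tumour, and Fancc -0.0279 to 0.0903. Averaged arms, ranks, the myeloid list and the fits without the muscle-rich tumours were added after seeing the data. On simulated data 2-fold changes were recovered in 34% of genes with 4 tumours a group and 63% with 8. Changes of that size or smaller are thus often missed.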
